A study of Mus musculus with 16 samples.

Results

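Newborn GABAergic cells of the olfactory bulb were compared with newborn GABAergic cells of the cerebellum. The members were the 3 arrays titled as olfactory bulb cells and the 3 titled as cerebellum cells, 6 of the 16 arrays of the series. All cells came from GAD67-eGFP mice, kept on a C57Bl/6 background, at postnatal day 1; no other treatment or genotype was given. GAD67 is the GABA-synthesizing enzyme encoded by Gad1, and in this line enhanced green fluorescent protein marks cells that use that gene. Per the labels, 6 brains were divided into 4 regions (bulb, cortex, striatum, cerebellum), the tissue was made into single cells, and fluorescent cells were sorted by flow cytometry. Each array held 1 biological replicate, labelled with Cy5, against amplified cDNA of whole brain from 4 age-matched mice, labelled with Cy3. The labels do not say how many mice went into a replicate, or whether the bulb and cerebellum samples came from the same animals. The labels used here give no marker beside fluorescence for the sort. Fewer cells of a type and less RNA per cell cannot be told apart in these pooled cells.

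Most olfactory bulb interneurons are born in the ventral forebrain and migrate to the bulb around and after birth, where they become granule and periglomerular cells. Dlx homeobox genes drive the GABAergic fate of forebrain progenitors, and Sp8, Etv1, Tshz1, Pbx3 and Meis2 mark bulb interneurons or their precursors. Cerebellar GABAergic cells, which include Purkinje cells, inhibitory interneurons and nuclear cells, come from the cerebellar ventricular zone through Ptf1a. Lhx1, Lhx5 and Skor2 then mark young Purkinje cells, and Pax2 marks interneuron precursors.

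Every value below is a log2 ratio of sorted cells to the common reference, or a difference of such ratios, olfactory bulb minus cerebellum. A difference of 1 is 2-fold. Genes were called at a Benjamini-Hochberg adjusted p under 0.05 from limma, fitted to all 16 arrays. Arrays of one region were alike across genes, with correlations of 0.943 to 0.959 among olfactory bulb arrays and 0.936 to 0.978 among cerebellum arrays, against 0.777 to 0.834 between the regions. Genes are not independent replicates, so these coefficients are descriptions. The cerebellum arrays were brighter. Their median sorted-cell signal was 331.2 to 717.5, against 179.3 to 268.4 on the olfactory bulb arrays, and in that channel 90.9% to 96.6% of their spots rose clearly over background, against 80.1% to 86.5%. The part of this brightness in the results was not tested beyond a fit with all arrays brought to equal brightness, which called 4636 genes higher in olfactory bulb and 5791 higher in cerebellum, and 694 genes at 2-fold.

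The reference was not the same on all arrays. A list of 13 lung epithelium genes, chosen after their values were seen, includes surfactant proteins and club cell secretoglobins, which brain tissue is not known for. Their mean log2 signal in the reference channel was 9.24 to 9.59 on the 3 cerebellum arrays and 7.96 to 8.08 on the 3 olfactory bulb arrays. In the sorted-cell channel it was 8.84 to 8.99 against 8.17 to 8.26. In the reference channel, 6 of the 13 were called lower on olfactory bulb arrays and none higher, against 6.83% and 6.4% of all genes. Sftpc, surfactant protein C, had a reference signal of 6.54 to 7.13 on olfactory bulb arrays, 7.10 to 7.35 on cortex arrays, 11.75 to 12.16 on striatum arrays and 11.33 to 12.02 on cerebellum arrays. Its sorted-cell signal was 6.71 to 7.09 on olfactory bulb and 10.06 to 10.42 on cerebellum arrays. A ratio can therefore differ because of the reference. The sorted-cell channel was not free of this signal. There, 6 of the 13 were called lower on olfactory bulb arrays and 1 higher, against 24.9% and 21.1% of all genes. A call in that channel is thus no sign that a gene is free of such differences between arrays. Of the genes called and given with a value below, Abat, Hoxa9, Pcp4, Pbx4, Th, Gsx2, Slc17a6, Nr2f2 and Nfib were not called in the sorted-cell channel alone. The cause of the unequal reference was not tested.

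**Figure D1:**
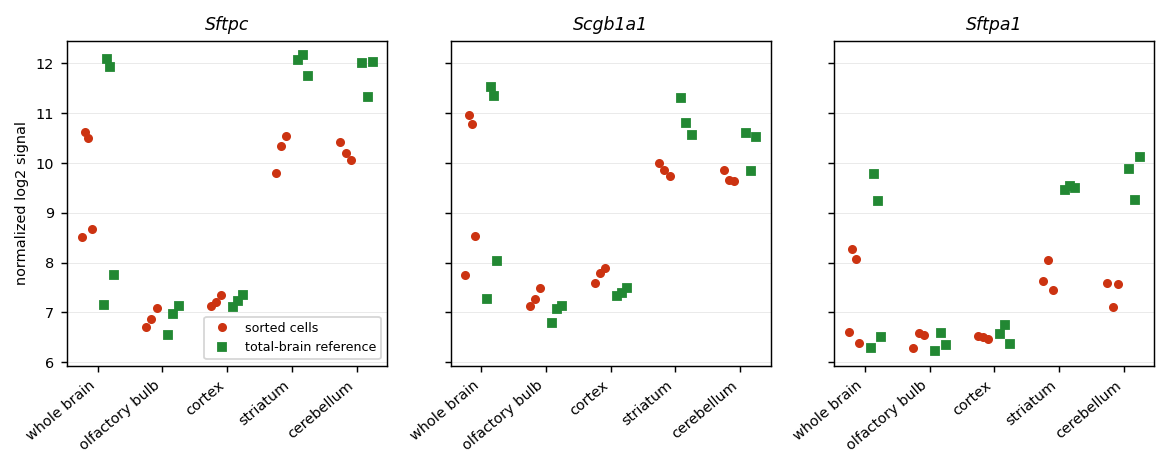
Normalized log2 signal of 3 lung genes in the sorted-cell channel (circles) and in the reference channel (squares), with 1 point per array and the 5 groups on the horizontal axis. Sftpc in the reference lies at 6.54 to 7.13 on olfactory bulb arrays and at 11.33 to 12.02 on cerebellum arrays.

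The regions differed widely. Of 27262 genes tested, 10850 were called, which is 39.8%; 4588 (16.8%) were higher in olfactory bulb and 6262 (23%) were higher in cerebellum. Median centring in place of loess turned that split, to 6509 higher in olfactory bulb and 5529 higher in cerebellum. At 2-fold, 261 genes (0.957%) were higher in olfactory bulb and 391 (1.43%) higher in cerebellum, or 2.39% in all. The 3 arrays of one region did not overlap the 3 of the other for 12883 genes (47.3%). A call alone is thus common here, and the sizes are what set a gene apart. The median difference over all genes was -0.039. The channels were then fitted alone. In the sorted-cell channel 12535 genes (46%) were called, 21.1% of all genes higher in olfactory bulb and 24.9% higher in cerebellum. At 2-fold this channel called 1821 genes (6.68%), 2.13% higher in olfactory bulb and 4.54% higher in cerebellum. The reference channel, which per the labels held the same kind of cDNA throughout, called 3607 genes (13.2%), 6.4% higher on olfactory bulb arrays and 6.83% higher on cerebellum arrays. At 2-fold it called 319 genes (1.17%), 0.0917% against 1.08%. That count of 3607 rested on single arrays: it was 343 without olfactory bulb replicate 1, and 666, 1463 and 1635 without cerebellum replicates 1, 2 and 3. Of the 652 genes at 2-fold, 616 were called in the same direction in the sorted-cell channel, and 40 had under 50% of their difference there. These 40 comprised 27 of the 261 genes higher in olfactory bulb and 13 of the 391 higher in cerebellum. Sftpc and Sftpa1 were among the 27. Many genes at 2-fold had 2 or more probes. All of a gene's probes shared the direction for 95 of 122 such genes higher in olfactory bulb. This held for 111 of 159 higher in cerebellum.

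**Figure D2:**
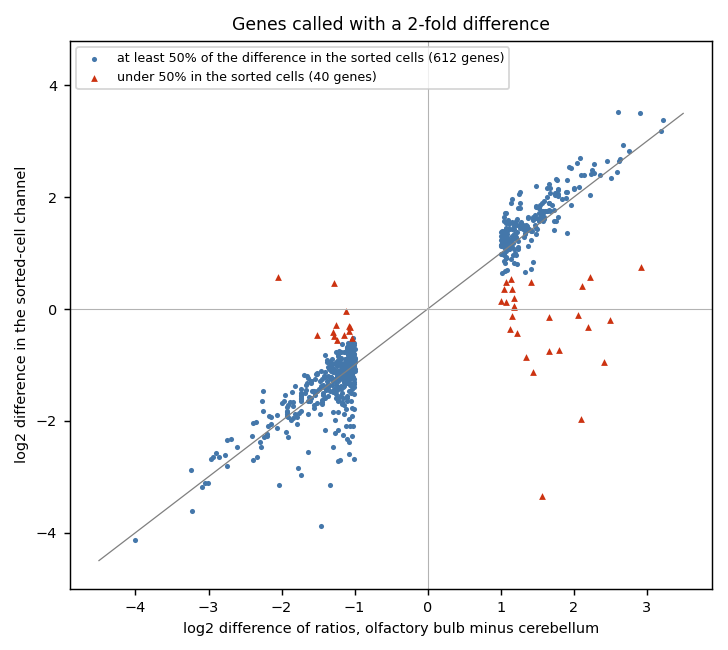
Each point is 1 of the 652 genes called at 2-fold; the horizontal axis is the log2 difference of ratios (olfactory bulb minus cerebellum) and the vertical axis is the log2 difference in the sorted-cell channel alone, with the diagonal marking equal values. Triangles are the 40 genes with under 50% of the difference in the sorted cells, most of them on the olfactory bulb side.

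Forebrain GABAergic transcription factors were higher in olfactory bulb cells. Of 10 measured, 7 were called higher and 3 lower, with a median difference of 2.06, against 16.8% and 23% of all genes and an overall median of -0.039. Dlx1, a homeobox gene of the ventral forebrain, had ratios of 3.84, 3.79 and 3.81 in olfactory bulb and 0.58, 0.68 and 0.63 in cerebellum. The groups lay far apart, and the difference was 3.19 ± 0.10 (SE, limma adjusted p = 4.08e-14), or 9.10-fold. Dlx6os1, a long non-coding RNA antisense to Dlx6, had 4.29, 4.25 and 4.04 against 1.21, 1.44 and 1.19. Its difference was 2.91 ± 0.10 (SE). The labels do not say that strand was kept through amplification, so Dlx6os1 and Dlx6 cannot be told apart where they overlap. Dlx6, Dlx5 and Dlx2 were higher by 2.28, 2.22 and 1.91. Every cerebellum array was still above the reference for Dlx1, Dlx5 and Dlx6. Sp8, a zinc finger factor of bulb interneurons, had 3.34, 3.33 and 3.36 against 0.65, 0.92 and 0.64, a difference of 2.61 ± 0.12 (SE). Those called lower included the progenitor factors Gsx1, at -1.56, and Gsx2, at -0.25, of which Gsx2 was not called when any 1 of the 6 arrays was left out. Under median centring 1 member of the list was called lower.

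Markers of olfactory bulb interneurons followed, with 9 of 13 called higher, 2 lower and a median of 1.47. The shares of all genes were 16.8% and 23%. Etv1, an ETS factor of bulb interneuron precursors, had the largest difference of all genes the naming rule admits on this side. Its ratios were 2.66, 2.67 and 2.60 in olfactory bulb and -0.70, -0.67 and -0.39 in cerebellum, a difference of 3.23 ± 0.09 (SE, limma adjusted p = 4.08e-14). Tshz1, a zinc finger factor needed for the radial migration of bulb interneurons, had 1.79, 1.82 and 1.87 against -0.83, -0.89 and -0.84. The difference was 2.68 ± 0.08 (SE). Calb2, which encodes calretinin, was higher by 1.56, and its 3 probes shared that direction. Vax1 and Pax6 were higher by 1.47 and 0.63. Calb1 was called higher by 0.69, but it was well above background on 1 of 3 olfactory bulb arrays, and its call was lost without olfactory bulb replicate 1 or 3 or cerebellum replicate 2, where it was 0.57, 0.65 and 0.24. Not every marker moved this way. Th, tyrosine hydroxylase of dopaminergic periglomerular cells, was slightly lower, at -0.30. Tpbg, a marker of a superficial granule cell subset, differed by -1.46, with ratios of -1.66, -1.72 and -1.52 against -0.13, -0.21 and -0.18. Trh and Synpr were not called. Th was not called without olfactory bulb replicate 1 or 2 or cerebellum replicate 3. The count called lower was 1 under median centring and without each of those arrays.

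TALE homeobox genes, which encode DNA-binding partners of other homeodomain proteins, were mostly higher in olfactory bulb. Of 7 measured, 5 were called higher in olfactory bulb and 1 lower, against 16.8% and 23% of all genes, with a median of 1.16. Pbx3 had ratios of 1.72, 1.67 and 1.66 against -0.66, -0.42 and -0.64, a difference of 2.25 ± 0.10 (SE). Its other probe differed by 0.21. Meis2, Meis1 and Pbx2 followed at 1.73, 1.16 and 0.71. The other probe of Meis1 differed by 0.11. Meis3 was not called. Pbx4 differed by -0.30, and no member was called lower under median centring or without any one array other than olfactory bulb replicate 3.

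Other genes led the olfactory bulb side without belonging to those families. Dusp4, a phosphatase that dampens MAP kinase signalling, had ratios of 3.33, 3.38 and 3.29 against 0.45, 0.85 and 0.41. Fgfr2, a receptor of fibroblast growth factors, had 1.48, 1.42 and 1.42 against -1.18, -1.23 and -1.15, a difference of 2.62 ± 0.09 (SE), and its 3 probes differed by 0.29 to 2.62. In the FGF list of 19 genes, 4 were called higher and 5 lower, against 16.8% and 23% of all genes. Its median was 0.08, so that the list as a whole lay near all genes. Under median centring 7 were called higher. Grip1, a scaffold for glutamate receptors, was higher by 2.45, with 0.27 as the smallest difference among its 3 probes. Efnb2, the ligand ephrin-B2, was higher by 2.14. Nab1, a repressor that binds EGR factors, was higher by 2.28, but its 2 probes differed by 0.21 and 2.28. The cytoskeletal genes Epb41l3 (2.24), Tiam2 (2.10), Gas2l3 (2.09) and Dync1i1 (2.07) completed the group with Pcbp3 (2.36), an RNA-binding protein. For Dync1i1 only 1 of 2 probes showed the direction, and for Gas2l3 the second probe gave 0.18. Sox2, a factor of neural progenitors that newborn bulb interneurons also carry, was higher by 1.84, with 1.33, 1.40 and 1.16 against -0.64, -0.40 and -0.58. Sox2ot, the transcript that overlaps it, was higher by 1.90. The mean ratio of Sox2 was higher still in cortex (1.67) and striatum (1.75) than on any olfactory bulb array. Both genes belong to a list of 4 Sox genes chosen after the values were seen. By ratio 3 of the 4, Sox3 among them, were called higher in olfactory bulb and none lower, against 16.8% and 23% of all genes. In the sorted-cell channel 2 were called higher, and 2, Sox1 and Sox3, were called lower.

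**Figure D3:**
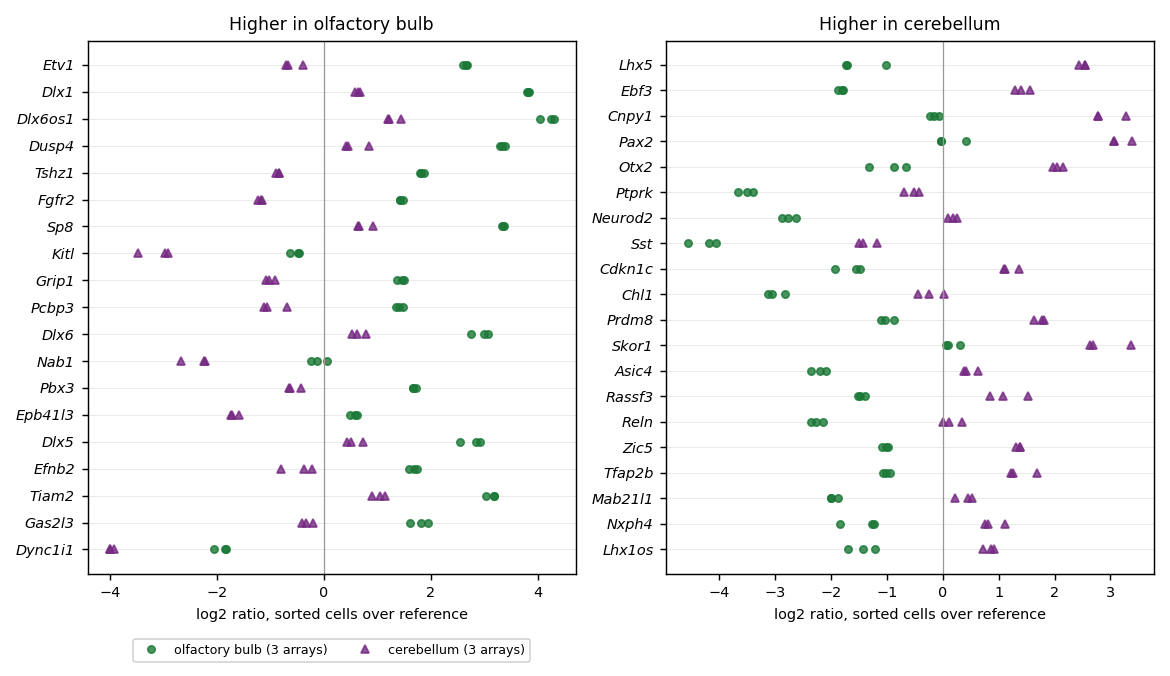
Log2 ratio of sorted cells to reference on each of the 6 arrays for genes with the largest differences in each direction under the naming rule, 19 toward olfactory bulb and 20 toward cerebellum; circles are olfactory bulb, triangles are cerebellum, and genes run from the largest difference at the top. No gene shown has overlapping groups; the differences run from 3.23 (Etv1) to 2.07 (Dync1i1) and from -4.00 (Lhx5) to -2.28 (Lhx1os).

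Start site sequences were read for these genes from RefSeq (GRCm38.p6), which held 1 or more for 27 of the 40 named genes. Each window covers the 250 bases before an annotated start and was searched on both strands for TAATTA, the core that many homeodomain proteins bind. TAATTA was in 4.84% of all 32851 windows, in 5.39% of the 241 windows of genes at 2-fold higher in olfactory bulb and in 2.93% of the 341 windows of genes at 2-fold higher in cerebellum. The 5 windows shown run 5′ to 3′ on the gene's strand with TAATTA in capitals: Dlx1 and Ebf3, which stand near the top of each side and lack the motif here, and 3 genes whose window holds it. A match is a description of the sequence, not a site. Dlx1 lies at chr2:71529195-71529444, plus strand; Dlx6os1 at chr6:6869534-6869783, minus strand; Sp8 at chr12:118847309-118847558, plus strand; Ebf3 at chr7:137314446-137314695, minus strand; and Otx2 at chr14:48665110-48665359, minus strand. Dlx6os1, Sp8 and Otx2 have other annotated starts as well.
Dlx1: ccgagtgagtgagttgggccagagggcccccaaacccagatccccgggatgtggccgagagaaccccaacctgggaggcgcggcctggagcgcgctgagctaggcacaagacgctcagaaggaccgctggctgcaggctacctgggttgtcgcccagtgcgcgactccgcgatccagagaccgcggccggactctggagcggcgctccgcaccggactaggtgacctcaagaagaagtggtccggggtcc
Dlx6os1: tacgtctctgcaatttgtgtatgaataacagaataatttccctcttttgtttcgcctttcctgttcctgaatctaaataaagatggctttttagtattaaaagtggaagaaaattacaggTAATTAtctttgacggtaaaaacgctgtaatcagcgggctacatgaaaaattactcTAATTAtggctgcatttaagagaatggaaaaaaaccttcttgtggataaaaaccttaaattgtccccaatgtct
Sp8: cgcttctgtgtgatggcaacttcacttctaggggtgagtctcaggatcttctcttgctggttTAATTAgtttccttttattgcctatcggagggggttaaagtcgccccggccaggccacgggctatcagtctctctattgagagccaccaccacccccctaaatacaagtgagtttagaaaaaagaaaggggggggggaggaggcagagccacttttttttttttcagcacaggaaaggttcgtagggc
Ebf3: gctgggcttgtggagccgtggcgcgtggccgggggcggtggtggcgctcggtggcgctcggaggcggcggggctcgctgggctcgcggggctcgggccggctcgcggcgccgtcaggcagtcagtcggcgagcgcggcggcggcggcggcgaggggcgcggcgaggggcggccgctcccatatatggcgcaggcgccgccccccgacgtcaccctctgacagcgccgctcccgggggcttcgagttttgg
Otx2: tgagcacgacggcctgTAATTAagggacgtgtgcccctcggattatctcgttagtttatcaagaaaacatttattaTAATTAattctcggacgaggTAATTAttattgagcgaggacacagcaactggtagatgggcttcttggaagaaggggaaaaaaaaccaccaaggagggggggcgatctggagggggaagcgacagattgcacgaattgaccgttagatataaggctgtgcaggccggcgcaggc

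Telencephalic patterning genes split between the regions, with 5 of 16 called higher in olfactory bulb and 8 lower. The shares of all genes were 16.8% and 23%, and the list median was -0.22. Bcl11b and Bcl11a, zinc finger factors of forebrain neurons, were higher by 1.49 and 1.08. The dorsal factors Emx1 and Emx2 were lower in olfactory bulb cells, at -1.19 and -1.07, as were Nr2f1 (-0.95) and Nr2f2 (-0.89). For Nr2f2 the sorted-cell channel differed by -0.13 and was not called there. Without olfactory bulb replicate 2 the count called lower was 5.

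Genes of the cerebellar GABAergic lineage were higher in cerebellum cells. Of 14 measured transcription factors, 10 were called higher in cerebellum and 1 in olfactory bulb, against 23% and 16.8% of all genes. The list median was -0.72. Lhx5, a LIM homeobox gene of young Purkinje cells, had the largest difference in that direction. Its ratios were -1.01, -1.73 and -1.72 in olfactory bulb and 2.44, 2.55 and 2.55 in cerebellum, a difference of -4.00 ± 0.15 (SE, limma adjusted p = 4.52e-13), or 16-fold. Pax2, of interneuron precursors, had 0.41, -0.03 and -0.03 against 3.06, 3.06 and 3.39, a difference of -3.05 ± 0.13 (SE). Skor1, a corepressor, had 0.05, 0.10 and 0.31 against 2.69, 3.37 and 2.64. Its relative Skor2 had no probe under that name. Tfap2b and Tfap2a, AP-2 factors that act in this lineage, differed by -2.39 and -0.98, and Lhx1 differed by -0.81; the second probes of Tfap2a and Lhx1 differed by -3.87 and -2.11. Lhx1os, the RNA transcribed beside Lhx1, differed by -2.28, but it was well above background on only 1 of 3 olfactory bulb arrays. Neurog2, a proneural factor, differed by -1.16. Ptf1a, the gene that founds the lineage, was not called, with ratios of 0.24, -0.07 and -0.19 against 0.17, 0.20 and 0.15; without olfactory bulb replicate 1 it was called at -0.30. Foxp2 went the other way. This factor of both Purkinje cells and striatal neurons was higher in olfactory bulb by 1.52, with 0.03, 0.08 and 0.07 against -1.42, -1.59 and -1.36.

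Genes of a Purkinje cell list showed no common direction. Of 16 measured, 4 were called higher in olfactory bulb and 6 in cerebellum, against 16.8% and 23% of all genes, and the median was -0.10. Pcp2, a gene long used to mark Purkinje cells, had 0.34, 0.25 and 0.29 against 0.31, 0.61 and 0.42 and was not called, although its sorted-cell channel differed by -0.62. Not called either were Rora and Itpr1. Car8 differed by -0.39, Pcp4 by -0.51 and Slc1a6 by -0.59. The other probes of Car8 and Pcp4 differed by 0.19 and 0.03. Grid2ip and Plcb4 were higher in olfactory bulb, by 1.05 and 0.66. Pcp4 lay well below the reference in both regions, with ratios of -3.35 to -3.09 in olfactory bulb and -2.74 to -2.64 in cerebellum. Under median centring 3 members were called higher in cerebellum in place of 6.

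Some posterior patterning genes were higher in the cerebellum samples. Of 17 measured midbrain and hindbrain genes, 8 were called higher in cerebellum and 1, Fgf17 (0.51), in olfactory bulb. The shares of all genes were 23% and 16.8%. Cnpy1, an FGF regulator of the midbrain-hindbrain boundary, had ratios of -0.06, -0.15 and -0.23 in olfactory bulb and 2.77, 3.27 and 2.78 in cerebellum, a difference of -3.09 ± 0.16 (SE). Irx1 and En2, homeobox genes of this territory, differed by -1.73 and -1.44. En1 was not well above background on any olfactory bulb array and was at least 1.36-fold higher in cerebellum in the sorted-cell channel, a bound that takes the lowest signal well above background on each dim array. Its ratio was not called without olfactory bulb replicate 1 or cerebellum replicate 1 or 3. Of 26 Hox genes, 9 were called higher in cerebellum and 1, Hoxa9 (0.92), in olfactory bulb, or 2 without cerebellum replicate 3. These counts stand beside 23% and 16.8% of all genes. The other 16 were not called, and the median was -0.22. Hoxa9 differed by 0.31 in the sorted-cell channel, where it was not called, and by -0.61 in the reference channel. Hoxc5 differed by -1.33, with -3.14 in the sorted-cell channel and -1.81 in the reference channel. Among Zic genes, 3 of 5, zinc finger factors of the dorsal neural tube, were higher in cerebellum, with ratios more than 2-fold apart: Zic5 at -2.39, Zic2 at -2.25 and Zic1 at -1.54. Zic5 had -1.01, -1.08 and -0.98 against 1.31, 1.39 and 1.39. In the sorted-cell channel Zic2 differed by -1.46, and in the reference channel by 0.79. Zic4 was not called, although its second probe differed by -1.22. Mab21l1, which is also active in the dorsal midbrain and cerebellum, differed by -2.35.

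Genes listed as factors of midbrain and hindbrain GABAergic neurons were higher in the cerebellum samples too. This list of 10 was chosen after the values were seen. By ratio, 8 were called higher in cerebellum and none in olfactory bulb, against 23% and 16.8% of all genes. In the sorted-cell channel 9 were called higher in cerebellum, against 24.9% of all genes. Otx2, an anterior factor that is not particular to GABAergic neurons, had ratios of -0.66, -1.32 and -0.88 against 1.98, 2.15 and 2.05. The difference was -3.01 ± 0.15 (SE), with 2 of 3 olfactory bulb arrays well above background. Gata3, Tal1 and Gata2, selectors of midbrain GABAergic neurons, differed by -2.15, -1.84 and -0.78. The other probe of Gata2 differed by 0.06, and Gata2 was well above background on 2 of 3 olfactory bulb arrays. Gata3 had -0.97, -1.01 and -1.04 against 1.04, 1.32 and 1.08. Pax3 and Lbx1, dorsal factors of the hindbrain and spinal cord, differed by -1.94 and -1.54 and were not well above background on any olfactory bulb array; in the sorted-cell channel they were at least 4.61-fold and 2.79-fold higher in cerebellum. Sox14 and Pax7 differed by -0.87 and -0.65. Tal2 and Helt were not called. The parts of neighbouring tissue and of cerebellar cells in these values were not tested.

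Ebf and nuclear factor I genes also stood higher in cerebellum, in lists chosen after the values were seen. Of 4 Ebf genes, which encode helix-loop-helix factors of neuronal differentiation, 3 were called and none in the other direction. The shares of all genes were 23% and 16.8%. Ebf3 had -1.81, -1.87 and -1.79 against 1.40, 1.57 and 1.30, a difference of -3.24 ± 0.11 (SE), and both its probes had that direction. Ebf1 and Ebf2 differed by -1.82 and -0.36. For Ebf1, 1 cerebellum array was dropped because its spot was marked. Ebf2 was well above background on only 1 of 3 olfactory bulb arrays. Nfia, Nfix and Nfib differed by -1.73, -1.65 and -0.64, and Nfic was not called.

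Genes of excitatory lineages were also higher in the cerebellum samples. In the granule cell lineage list, 9 of 14 were called higher in cerebellum and 1, Pax6, in olfactory bulb. The shares of all genes were 23% and 16.8%. Nhlh2 and Nhlh1, helix-loop-helix factors of newborn neurons, differed by -2.19 and -1.59, Cbln1 by -1.89, Neurod1 by -1.44 and Barhl1 by -1.28. Atoh1, the founding factor of granule cells, had 0.15, -0.17 and -0.34 against 0.71, 0.84 and 0.57. The mean ratio over the list was -0.48 to -0.38 on olfactory bulb arrays and 0.27 to 0.35 on cerebellum arrays, and 13 of its 14 members were well above background on all cerebellum arrays. Neurod2, a factor of maturing excitatory neurons, had -2.77, -2.88 and -2.62 against 0.10, 0.18 and 0.25, a difference of -2.94 ± 0.11 (SE). In the list of glutamatergic neurons of forebrain and bulb, 8 of 13 were called higher in cerebellum and 1 in olfactory bulb, which was not called without olfactory bulb replicate 1 or 3 or cerebellum replicate 2. In that list Slc17a6, a vesicular glutamate transporter, differed by -0.35 but was not called without olfactory bulb replicate 1 or 2 or cerebellum replicate 1 or 3. The part of excitatory cells in these values was not tested.

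Sonic hedgehog signalling drives the growth of the newborn cerebellum. Of 13 measured genes of the pathway, 9 were called higher in cerebellum and 1 in olfactory bulb, against 23% and 16.8% of all genes. The list median was -0.41. The ligand Shh, which Purkinje cells make, differed by -0.54, with -0.37, 0.04 and -0.20 against 0.45, 0.28 and 0.38. Among receptors, the coreceptor Boc differed by -1.20, while Ptch1, with 2 olfactory bulb arrays dropped, and Cdon were not called, except without cerebellum replicate 2, at -0.37 and -0.29. The transducer Smo differed by -0.41 and the inhibitor Sufu by -1.31. The effectors Gli3, Gli1 and Gli2 differed by -0.98, -0.41 and -0.27, and the target Mycn by -0.46. The other probes of Boc and Gli3 differed by only -0.01 and -0.08. Gli2 was not called without olfactory bulb replicate 1 or cerebellum replicate 1 or 2. Gas1, a coreceptor, was higher in olfactory bulb by 0.47.

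**Figure D4:**
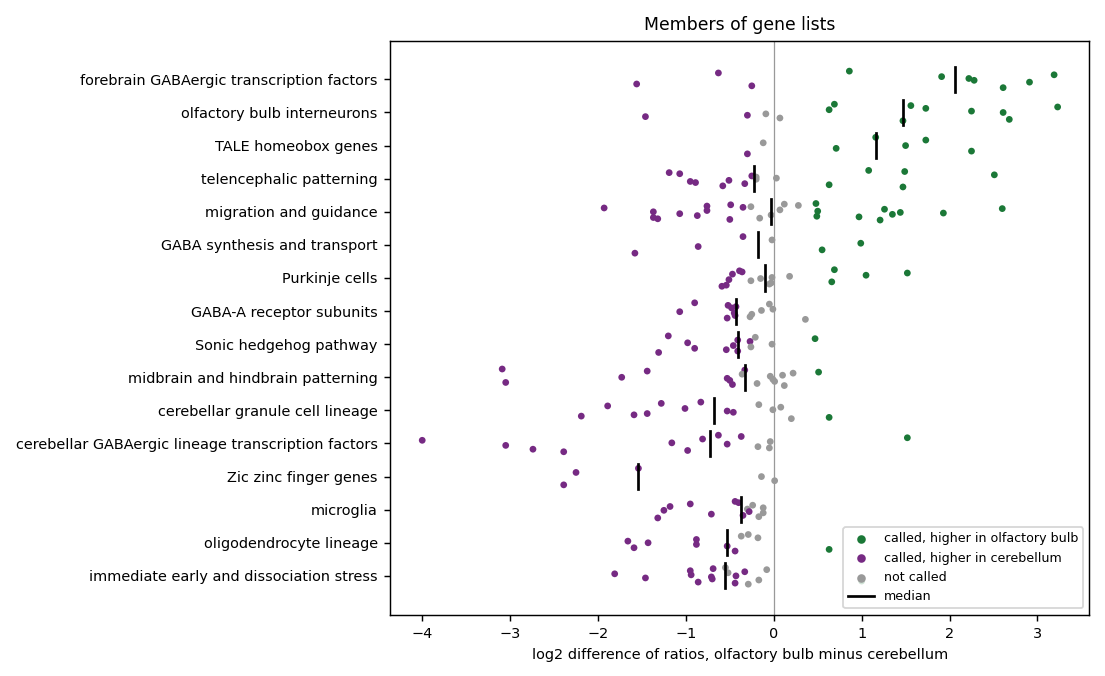
Log2 difference of ratios (olfactory bulb minus cerebellum) for every measured member of 16 gene lists, 1 point per gene, with the list's median as a bar and colours for the call. Forebrain GABAergic factors have a median of 2.06, cerebellar GABAergic factors -0.72 and Zic genes -1.54.

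Genes of migration and guidance went both ways, 10 of 27 called higher in olfactory bulb and 11 higher in cerebellum. The shares of all genes were 16.8% and 23%, and the list median was -0.03. In the Kit and reelin systems ligand and receptors differed in opposite directions. Kitl, the ligand of the Kit receptor, had ratios of -0.46, -0.48 and -0.63 in olfactory bulb and -2.97, -3.48 and -2.92 in cerebellum, a difference of 2.60 ± 0.18 (SE). Kit itself differed by -1.93, with -1.55 and -1.38 on 2 olfactory bulb arrays, the other being dropped, against 0.42, 0.53 and 0.45. Reln, the secreted ligand reelin, had -2.14, -2.35 and -2.27 against 0.12, 0.35 and 0.00, a difference of -2.41 ± 0.12 (SE), although its other probe differed by -0.26. Its receptors Lrp8 and Vldlr were higher in olfactory bulb, by 1.26 and 1.21, and their adaptor Dab1 was not called (0.28), except without cerebellum replicate 3, where it was 0.33. Prokr2, the prokineticin receptor through which newborn interneurons reach the bulb, was higher by 1.93, with 1.65, 1.41 and 1.14 against -0.46, -0.83 and -0.30. Robo2, a Slit receptor, was higher in olfactory bulb by 1.35, a direction that all of its 6 probes had, whereas Robo1 differed by -1.07. Slit2 differed by -0.87, with 1 olfactory bulb array dropped and 2 of 6 probes in the other direction, and Slit1 was not called. The netrin ligand Ntn1 and the receptors Unc5a, Unc5c, Unc5d and Dcc were all higher in cerebellum, at -1.37, -1.37, -1.32, -0.50 and -0.76. Plxna4, a semaphorin coreceptor, was higher in olfactory bulb by 1.44. The enzymes St8sia4 and St8sia2, which build polysialic acid on migrating cells, were higher by 0.97 and 0.49.

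Genes of GABA synthesis and transport differed in both directions, with 2 of 6 called higher in olfactory bulb and 3 in cerebellum. The shares of all genes were 16.8% and 23%. Gad1, the gene whose activity marks the sorted cells, had ratios of 0.85, 0.80 and 0.78 in olfactory bulb and 0.67, 1.26 and 0.58 in cerebellum and was not called (difference -0.02 ± 0.13, SE, limma adjusted p = 0.902). It lay above the reference on all 6 arrays. Gad2, the second GABA-synthesizing enzyme, was higher in olfactory bulb by 0.99, with 1.92, 1.86 and 1.90 against 0.85, 1.17 and 0.68. Slc32a1, the vesicular GABA transporter, went the other way with 0.65, 0.61 and 0.66 against 1.39, 1.79 and 1.31, a difference of -0.86 ± 0.12 (SE). Slc6a11, a membrane transporter of GABA, was higher in cerebellum at -1.58. Abat, which degrades GABA, differed by -0.35. Among 14 GABA-A receptor subunits, 8 were called higher in cerebellum and none in olfactory bulb, against 23% and 16.8% of all genes. Gabrb2 (-1.07) was among the 8. For Gabrb2 only 1 of the 3 probes had that direction, and the mean of all probes called 4 subunits. Under median centring 5 were called, and 1 was called higher in olfactory bulb without olfactory bulb replicate 2 or without cerebellum replicate 1.

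Among 14 neuropeptide genes, 3 were called higher in cerebellum and 1 in olfactory bulb, against 23% and 16.8% of all genes. At equal brightness 6 were called higher in cerebellum. Sst, somatostatin, had -4.06, -4.19 and -4.55 against -1.49, -1.18 and -1.43, a difference of -2.90 ± 0.12 (SE), and was far below the reference on every array. Pnoc and Cartpt differed by -2.14 and -0.79. Npy was higher in olfactory bulb by 0.85, with 1 olfactory bulb array dropped. Of the remaining genes with the largest differences toward cerebellum, Ptprk (-2.97), a receptor phosphatase, and Chl1 (-2.78), an adhesion protein, were also below the reference on most or all arrays. Cdkn1c, a cell cycle inhibitor, differed by -2.85, Prdm8 by -2.75, Asic4, an ion channel, by -2.69, Rassf3 by -2.61 and Nxph4 by -2.34. The 3 probes of Prdm8 differed by -2.75 to -0.43.

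Markers of some other cell types moved with the regions. Over all genes, 23% were called higher in cerebellum and 16.8% in olfactory bulb. Of 14 microglia genes, 9 were called higher in cerebellum and none in olfactory bulb, and the mean ratio over the list was -0.87 to -0.75 on olfactory bulb arrays and -0.26 to -0.23 on cerebellum arrays. Tyrobp, Fcer1g and Csf1r differed by -1.32, -1.25 and -1.18. Of 11 oligodendrocyte lineage genes, 7 were called higher in cerebellum and 1 in olfactory bulb. Pdgfra, of oligodendrocyte precursors, differed by -1.59. The list's mean ratio was -1.21 to -0.89 against -0.30 to -0.22. All 14 microglia and all 11 oligodendrocyte genes were well above background in the sorted cells of both regions. Astrocyte and radial glia genes had like mean ratios in both regions, -0.89 to -0.78 and -0.89 to -0.72; 8 of 18 were called higher in cerebellum, but 1 under median centring, and 3 were called higher in olfactory bulb. Of 13 endothelial and mural cell genes, 3 were called higher in cerebellum and 1 in olfactory bulb, with mean ratios of -0.86 to -0.67 and -0.90 to -0.61. These endothelial counts lay near the shares of all genes or below them. Of 13 genes of meninges and choroid plexus, 5 were called higher in cerebellum and 3 in olfactory bulb, and of 12 genes of olfactory ensheathing and sensory cells 2 and 3. These small counts rested on single arrays. Without olfactory bulb replicate 3 or cerebellum replicate 1 or 3, 1 endothelial gene was called higher in cerebellum, and without olfactory bulb replicates 1 and 2 in turn 0 and 2 were called higher in olfactory bulb. Without olfactory bulb replicate 2 or cerebellum replicate 2, 1 gene of meninges and choroid plexus was called higher in olfactory bulb, and without olfactory bulb replicate 1, 1 ensheathing gene was called higher in cerebellum. Of 17 immediate early and dissociation stress genes, 11 were called higher in cerebellum and 1, Junb, in olfactory bulb. Junb had 1 cerebellum array dropped, and no member was called higher in olfactory bulb without any one array other than cerebellum replicate 2. Fos had 1.37, 1.78 and 1.69 against 3.20, 4.10 and 2.98, and Ier2 differed by -1.46. The list's mean ratio was 0.32 to 0.38 against 0.80 to 1.14. Of 18 proliferation genes, 11 were called higher in cerebellum and none in olfactory bulb, with a median of -0.52. In the sorted-cell channel alone 8 were called higher in cerebellum and 1 in olfactory bulb, with a median of -0.28. Birc5 differed by -1.57 and Mcm2 by -0.84, while Mki67 and Top2a were not called (Top2a was at -0.30 without olfactory bulb replicate 2). Under median centring 2 were called higher in olfactory bulb. Dcx and Map2, of young neurons, were higher in olfactory bulb by 1.21 and 1.06, and the neurofilament genes Nefm and Nefl differed by -1.18 and -1.13. The part of other cells or of handling in the differences above was not tested.

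Cortex and striatum cells, per the labels sorted and hybridized the same way, place these genes. The reference channel was not alike in them, however. Its mean signal for the lung list was 8.12 to 8.21 on cortex arrays, near the olfactory bulb arrays (7.96 to 8.08). On striatum arrays it was 9.5 to 9.62, near the cerebellum arrays (9.24 to 9.59). The part of this in the levels below was not tested. For 19 of the 20 named genes higher in olfactory bulb, all 6 cortex and striatum arrays lay above all 3 cerebellum arrays, and for 16 of the 20 the 3 olfactory bulb arrays lay above all 6. Dlx1 had means of 3.82 ± 0.02, 3.46 ± 0.11, 3.33 ± 0.12 and 0.63 ± 0.05 (SD, n = 3 in each region) in the order olfactory bulb, cortex, striatum, cerebellum. Etv1 had 2.64 ± 0.03, 1.70 ± 0.10, 1.60 ± 0.14 and -0.59 ± 0.17 in that order. Pcbp3 had 1.40 in olfactory bulb against -0.49 in cortex and -0.46 in striatum. For all 20 named genes higher in cerebellum, the 3 cerebellum arrays lay above all 6 cortex and striatum arrays. Pax2 had a mean of 3.17 in cerebellum and 0.12, -0.04 and 0.20 in olfactory bulb, cortex and striatum. Sst was the exception in size, with a mean of -1.37 in cerebellum and -2.14 in striatum. The named genes were chosen for a large difference between olfactory bulb and cerebellum, and these counts were not made over all genes. The part of that choice in how the regions separate was not tested. The levels are descriptions and were not tested here.

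**Figure D5:**
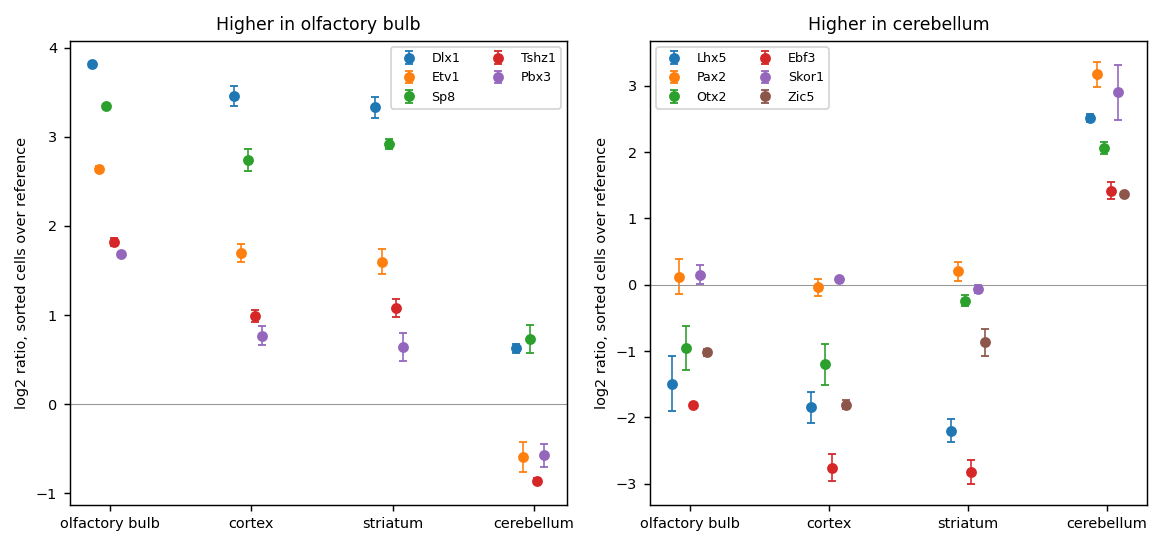
Mean log2 ratio of sorted cells to reference in the 4 regions (horizontal axis) for 5 genes higher in olfactory bulb and 6 higher in cerebellum; points are means of 3 arrays and bars are SD. Dlx1 runs from 3.82 in olfactory bulb to 0.63 in cerebellum, and Pax2 from 0.12 to 3.17.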

How the data were processed

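RNA of sorted cells was measured on 16 Agilent arrays of 2 colours, 1 per sample. Per the file headers, the deposited files hold each spot's mean and background intensity in both channels, made with Agilent Feature Extraction 8.1.1.1. Per the labels, the sorted cells carry Cy5 and the reference Cy3, which fixes the sign of every ratio; the labels also call Cy3 red, and dyes were not swapped. The authors' deposited value table is a log10 ratio within 0.005 of the scanner's own.

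Background was corrected in limma 3.58.1 (R 4.3.3) by normexp, adding 50 to each signal, which draws dim ratios toward 0, and ratios were normalized within arrays by loess. Control spots had weight 0, and spots the scanner marked were dropped. Each gene is given by its brightest probe under RefSeq's symbol; 9662 of 41174 probes kept the array's own name. A gene was tested if 3 arrays in the sorted channel, or 8 in the reference, detected it clearly over background, which kept 27262 of 28655. One model with 5 group means was fitted by lmFit and eBayes to every array. Single channels were normalized by Aquantile. The number of arrays limits the precision. The labels call the samples biological replicates but tie none to animals. Deviations of same-numbered arrays from their group means had correlations of 0.13, 0.23 and 0.01, against -0.18 to 0.14 for arrays of unlike number. These few values cannot settle whether the regions shared animals. No pairing was used in the main fit, since the labels give none.

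Named genes are the 20 largest differences in each direction among called genes with non-overlapping arrays and at least 50% of the difference in the sorted channel, plus members of gene lists. The comparison, rule and lists were chosen with earlier results of these data known. The fit was tested on simulated data, and alternatives changed background, normalization, filter, probe choice, arrays fitted and replicates. Some genes are not reported here.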

Additional observations from a re-analysis of the deposited data

Results flagged for a closer look

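The reference channel, which per the labels holds the same kind of total-brain cDNA on every array and is no sample of a group, carried a signal above its level on other arrays. For Sftpc the reference signal differed by -4.91 between olfactory bulb and cerebellum arrays (log2, olfactory bulb minus cerebellum, limma adjusted p = 0.0088). The ratio of Sftpc differed by 1.56 in favour of olfactory bulb, although the sorted-cell channel differed by -3.35. The ratio's call was lost without olfactory bulb replicate 1 (1.48), cerebellum replicate 1 (1.55) or cerebellum replicate 3 (1.36). The cause was not tested. Groups of 3 arrays were too small to be examined for single arrays that stand apart.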

How the results depend on the processing

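The 2-fold counts depended on the background correction, the normalization and the channel. Against 652 genes at 2-fold (261 higher in olfactory bulb, 391 higher in cerebellum), normexp without an offset gave 1583 (672 and 911), median centring 1047 (598 and 449), the scanner's own log ratio 2419 (1066 and 1353), and the sorted-cell channel alone 1821 (582 and 1239). Median centring moved the share of 2-fold calls higher in olfactory bulb from 40% to 57.1%. Of the 652 genes, 447 were also at 2-fold under median centring, 636 without an offset, 624 by the scanner's ratio and 505 in the sorted-cell channel. None was called in the opposite direction in any ratio fit, and 8 were in the sorted-cell channel. Leaving out 1 array gave 9038 to 10076 called genes, 623 to 750 at 2-fold, 242 to 301 higher and 365 to 456 lower, 9416 to 12452 called in the sorted-cell channel and 343 to 3649 in the reference channel. With the replicate number as a block on 12 regional arrays, 654 genes were at 2-fold, 649 of them shared, and 5572 were called in the reference channel. The 40 named genes kept direction and call in 840 of 840 refits. They had been chosen from these same arrays as the largest called differences, with a condition on the sorted channel. That choice favours keeping the call, so the count is no independent check. Among other genes called and named with a value, the sign turned for Gli2 (0.03) and Pbx4 (0.01) under median centring, and in the sorted-cell channel alone for Sftpa1 (-0.95), Sftpc (-3.35) and Slc17a6 (0.10); Gad1 (0.09) and Rora (0.10), not called by ratio, also turned there; the cause was not tested. A slide or scan block could not be fitted, since each array had its own slide and all regional arrays 1 scan batch. The fits at equal brightness, the list counts and the fit without genes differing in the reference were chosen after seeing the data.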
